A study of Drosophila melanogaster with 4 samples.

Results

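The peaks described here are the 672 called for the Abd-B-GFP fusion protein on the X chromosome of Drosophila melanogaster, out of 4389 peaks in the deposited list. They were chosen by chromosome name alone, and all 672 are included, with no filter on score or width. The single peak on XHet, the separately assembled X heterochromatin, is not among them. It lay at 75948 to 76608 of that scaffold and had a score of 13.79. All coordinates are those of FlyBase release 5, as the file header states.

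Binding was mapped by chromatin immunoprecipitation followed by sequencing (ChIP-seq) in wandering third-instar larvae (L3) of the strain Abd-B-GFP. The genotype is given as w; PBac{y[+]-attP-3B}VK00037, and the transgene is the genomic Abd-B coding region in which GFP takes the place of the stop codon. All libraries carry this genotype and stage, and the sex is labelled Unknown. A rabbit polyclonal antibody to GFP gave 2 ChIP libraries, and 2 input libraries were made from DNA without immunoprecipitation. The strain is a tagged extra copy at an attP docking site, so the peaks concern the fusion protein. No untagged strain is among the samples, so peaks from antibody background cannot be told apart. The extraction protocol in the labels names another stock (y; bw cn sp), and the sample characteristics were followed. The labels name the stage and no tissue, so a peak cannot be assigned to a kind of cell.

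Abdominal-B (Abd-B) is the posterior Hox gene of the bithorax complex. It encodes a homeodomain transcription factor that specifies the last abdominal segments and the genitalia. The X chromosome carries many developmental regulators, among them broad (br), Notch (N), cut (ct), Sex-lethal (Sxl) and runt (run). Males have a single X, whose transcription the dosage compensation complex raises, whereas females have a pair. Because that label leaves the sex open, the copy number of X in the chromatin is unknown, and its part in the scores of X peaks was not tested.

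Each peak has a position and 1 score, which the peak caller assigned and the authors deposited, and whose unit the file does not define. Strong and weak below refer to this score only, and not to a measured amount of bound protein. The list gives no value per library, so no value below has a replicate error and no difference was tested. Read depth per library is unknown. Intervals on shares are exact Clopper-Pearson 95% intervals and cover counting error between peaks only, as if peaks were independent.

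The X peaks ran from 139856 to 22415360, a span of 22.3 Mb, and made up 15.3% of the list (95% interval 14.3 to 16.4%). They covered 413 kb, or 1.85% of that span. Their scores had a median of 16.985, between quartiles of 11.45 and 34.94 and extremes of 6.39 and 250.4. Widths ran from 201 to 3726 bp, and the middle 50% of them from 317 to 767 bp around a median of 476 bp.

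**Figure D1:**
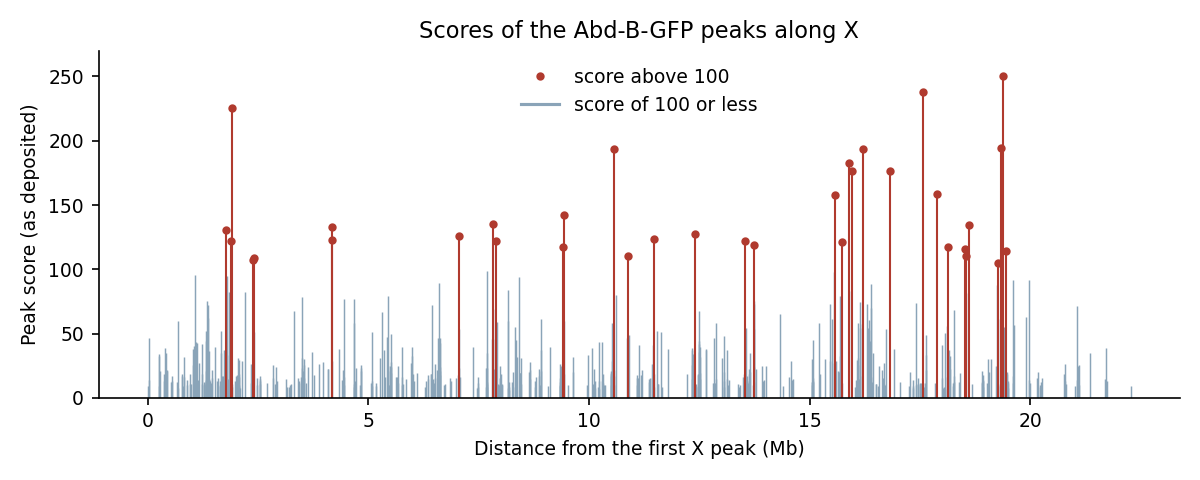
Score of each of the 672 X peaks (vertical axis, as deposited) against its distance from the first X peak in Mb, with 1 line per peak and the 34 peaks above a score of 100 in red with a dot. Strong peaks recur along most of the arm, with the highest at 250.4 near the right, and no peak above 100 lies in the last 2 full bins of 1 Mb.

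The distribution along the arm was uneven in 1 stretch near the tip and in 3 sparse ones. In the 22 full bins of 1 Mb the number of peaks had a median of 28.5 and ranged from 10 to 90, and 18 of the bins held between 20 and 40. The fullest was the bin from 1000001 to 2000000, with 90 peaks, or 13.4% of all X peaks in 1 bin. It was also the bin with the most DNA inside peaks, at 6.08% of its length. The next fullest were the bins from 16000001 to 17000000, with 40 peaks, and from 19000001 to 20000000, with 39. The emptiest were those from 14000001 to 15000000, with 10 peaks, from 21000001 to 22000000, with 11, and from 20000001 to 21000000, with 14. The last 2 of these adjoin each other at the centromere-proximal end of the arm.

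How many peaks a bin held and how strong they were did not run in parallel. Over the 22 full bins, the count and the median score had a Spearman correlation of 0.13, given as a description. The bin with 90 peaks had a median score of 13.66, the second lowest of the 22. The highest medians were 28.57 in the bin from 12000001 to 13000000, 28.3 in the bin from 16000001 to 17000000 and 27.64 in the bin before it. The lowest median, 11.75, was that of the bin from 17000001 to 18000000, which nonetheless held the second strongest peak of the chromosome. The strongest peak of each bin had a score between 59.88 and 250.4, with a median of 128.92 over the bins.

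The 11 bins nearer the tip held 388 peaks and the 11 nearer the centromere held 283. Scores above 100 were the rarer on the side with more peaks. There were 13 in the bins nearer the tip (3.35% of their peaks, 95% interval 1.8 to 5.66%) and 21 in the others (7.42%, 4.65 to 11.1%). These intervals overlap. Without the 2 fullest windows of 50 kb, described below, the bins nearer the tip held 349 peaks and their share above 100 was 3.72%.

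**Figure D2:**
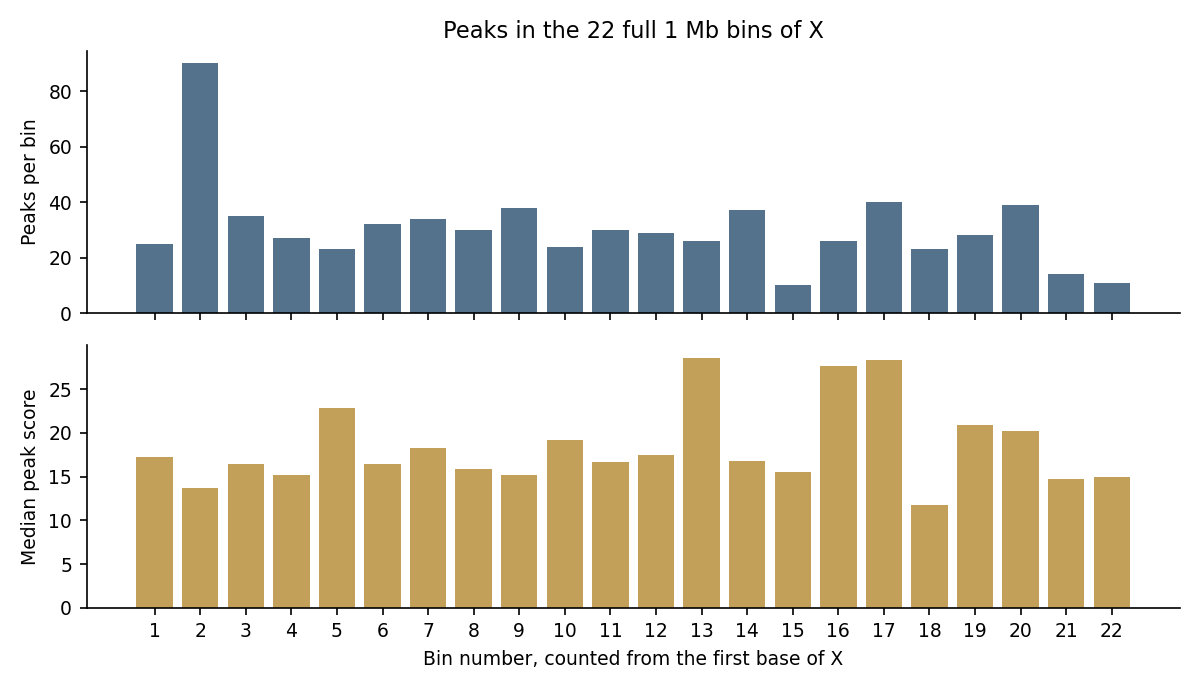
Number of peaks (upper bars) and median peak score (lower bars, as deposited) in each of the 22 full 1 Mb bins of X, numbered from the first base of the chromosome. Bin 2 stands out by its 90 peaks but has a median score of 13.66, while the highest medians are those of bins 13, 16 and 17.

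Peaks above a score of 100 numbered 34 on X, or 5.06% of its peaks (95% interval 3.53 to 7.0%), where the share over the whole list was 3.19%. That list includes the X peaks, and the shares on 2L, 2R, 3L and 3R were 2.34, 2.51, 2.4 and 2.67%. The 34 X peaks lay in 15 of the 22 full bins. The strongest X peak spanned 1533 bp from 19530929 to 19532461 and scored 250.4. The second, at 17720329 to 17721666, had a score of 237.6, and the third, at 2051829 to 2053306, had 225.67. Only the third of these lies near the tip. Of the 12 strongest peaks, 9 fell in the 11 bins nearer the centromere.

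The other 9 of the 12 strongest peaks had scores from 142.53 to 194.7. Scores of 194.7, 193.76 and 193.33 belonged to the peaks at 19471709 to 19473801, 16342459 to 16343722 and 10708922 to 10710062. The peak at 16041530 to 16042662 reached 182.85, and the next peak, 52 bp from its end, had a score of 83.07. The peaks at 16110545 to 16111926 and 16970635 to 16972060 scored 176.49 and 176.26. These last stood apart, with their nearest neighbours 60980 and 69768 bp away. The 12 were completed by scores of 158.58 for the peak at 18030779 to 18031830, 158.07 for that at 15705550 to 15707722 and 142.53 for that at 9578168 to 9580008. All 12 were wider than the upper quartile of X peaks, at 1052 to 2173 bp.

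Strong peaks were found both in company and alone. Of the 34 peaks above 100, 21 had another peak of any score within 5 kb, and 5 had none within 20 kb. Scores above 100 made up 4.58% of the X peaks with no neighbour within 5 kb (95% interval 2.46 to 7.7%). That interval holds the 5.06% of all X peaks. Strong peaks thus had a neighbour within 5 kb about as often as X peaks in general. Their median distance to the nearest peak was shorter, at 1894.5 bp against 3260 bp over all X peaks, a difference that was not tested. Another peak above 100 lay within 100 kb of 19 of the 34. The tightest pair lay 965 bp apart, at 4318953 to 4319677 and 4320643 to 4321221, with scores of 133.19 and 122.44. These were also narrow for their strength, at 725 and 579 bp, whereas 29 of the 34 were 1000 bp or wider.

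The window of 250 kb with the most peaks above 100, a window size chosen after the values were seen, held 4 of them between 19415986 and 19592116. The first of the 4 had a score of 104.73, followed by the 194.7 and 250.4 peaks given above and by a peak of 114.16 at 19591064 to 19592116. In all 12 peaks lay in this stretch of 176131 bp. Their scores ran from 14.99 to 250.4 with a median of 54.6, which the choice of the stretch by its strong peaks raises. Spacing here was loose, with a single pair of neighbouring peaks less than 4 kb apart, in contrast to the crowded stretch near the tip.

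Gaps between neighbouring X peaks had a median of 10104 bp, with quartiles at 2068 and 32341 bp and extremes at 51 and 525883 bp. Of the 671 gaps, 119 (17.7%) were under 1 kb and 61 (9.09%) were 100 kb or longer. The 61 long gaps together took up 11.4 Mb, which is 51.2% of the X span. On 2L, which has a similar number of peaks at 641, gaps of 100 kb or longer made up 48.5% of the span and the median gap was 14088.5 bp. On 3L and 3R, with 833 and 1048 peaks, long gaps made up 39.2% and 37.1% of the span and the median gaps were 10047.5 and 9887 bp. On 2R, with 916 peaks, the values were 31.2% and 8425 bp. The median gap of X was thus nearest to those of 3L and 3R, and the share of its span in long gaps was nearest to that of 2L and furthest from that of 2R.

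**Figure D3:**
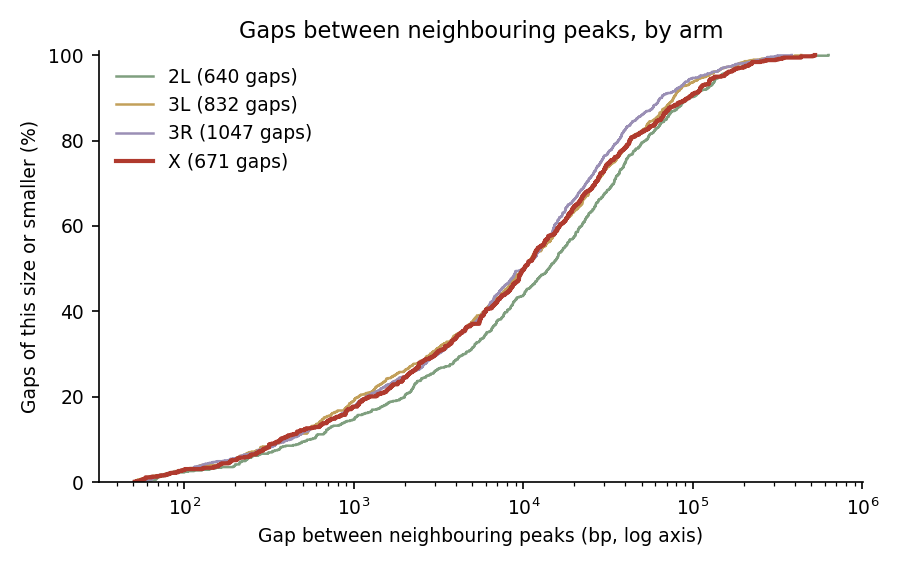
Percentage of gaps at or below a given length (horizontal log axis, bp) for the 671 gaps of X and those of 2L, 3L and 3R. The X curve runs with those of 3L and 3R up to its median of 10104 bp and lies below them at gaps of 100 kb, where 9.09% of the X gaps remain.

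The longest stretch without a peak, 525883 bp from 21889238 to 22415120, separated the last X peak from the rest of the chromosome. That last peak had a score of 8.91. The second longest, 510577 bp, ran from 20396026 to 20906602. It was followed by 434669 bp from 14756916 to 15191584, by 434598 bp from 11923114 to 12357711 and by 343093 bp from 21501891 to 21844983. In all, 8 such stretches were longer than 300 kb. Of the 447 windows of 50 kb between the first and the last peak, 200 (44.7%) held no peak. Unbound DNA and DNA to which reads cannot be mapped look the same in a peak list.

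Few X peaks were fully isolated. More than 100 kb from any neighbour stood 7 X peaks (1.04%), where the share over the whole list was 2.01%. Most of that share comes from other sequence, since only 26 of the 88 isolated peaks of the list lay on the 5 major arms (0.633% of their peaks). The share on X was below the 1.25% of 2L and above the 0.437% of 2R, the 0.382% of 3R and the 0.36% of 3L. The scores of the 7 X peaks ran from 8.91 to 37.71 with a median of 18.18. The highest belonged to the peak at 11922437 to 11923113, at the edge of one of the longest empty stretches. None of the 7 was among the 34 peaks above 100. Those were 5.06% of all X peaks, so 7 peaks are too few to show a difference.

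At the other extreme, 12 chains of 5 or more peaks had no internal gap above 5 kb. They held 87 X peaks, or 12.9% (95% interval 10.5 to 15.7%), and the share over the whole list was 13.4%, so X peaks were in chains about as often as all peaks. A further 301 peaks lay in 127 chains of 2 to 4, and 284 (42.3%) had no neighbour within 5 kb. The median score was 15.24 in chains of 5 or more, 17.07 in chains of 2 to 4 and 17.655 for peaks without such a neighbour. The first of these values rests on the 2 largest chains, described next, since the 54 peaks of the other 10 chains had a median of 18.365. Scores above 100 occurred in 3 of the 12 chains, 1 in each. That is 3.45% of the peaks in these chains (95% interval 0.717 to 9.75%), an interval that holds the 5.06% of all X peaks.

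The largest chains were neighbours, with 18 peaks from 1454968 to 1490464 and 15 peaks from 1497945 to 1521346. A gap of 7480 bp separated them. By background knowledge of the release 5 map, and not by any annotation used here, this is the part of X that carries broad, an ecdysone-response gene whose zinc finger proteins drive the larval to pupal transition. Which of the peaks fall inside its transcripts was not analysed here. The chains together held 4.91% of the X peaks in 0.298% of the X span.

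Strength inside the broad stretch was concentrated in a few peaks among many weak ones. The median score of its 33 peaks was 12.35, and 4 of them exceeded 50. Scores over all of X were skewed in the same way, with a median of 16.985, and 16.2% of all X peaks exceeded 50. The first chain had scores of 44.33 at 1459756 to 1461437, of 51.77 at 1467950 to 1469434 and of 75.69 at 1471934 to 1473144, and its last 4 peaks, toward the gap, lay between 6.84 and 12.35. In the second chain the score was 61.79 at 1504034 to 1507759 and 72.27 at 1510481 to 1511861. The former is the widest X peak, at 3726 bp, and ranked only 75th of the X peaks by score. The strongest peak of the stretch, at 75.69, ranked 56th.

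**Figure D4:**
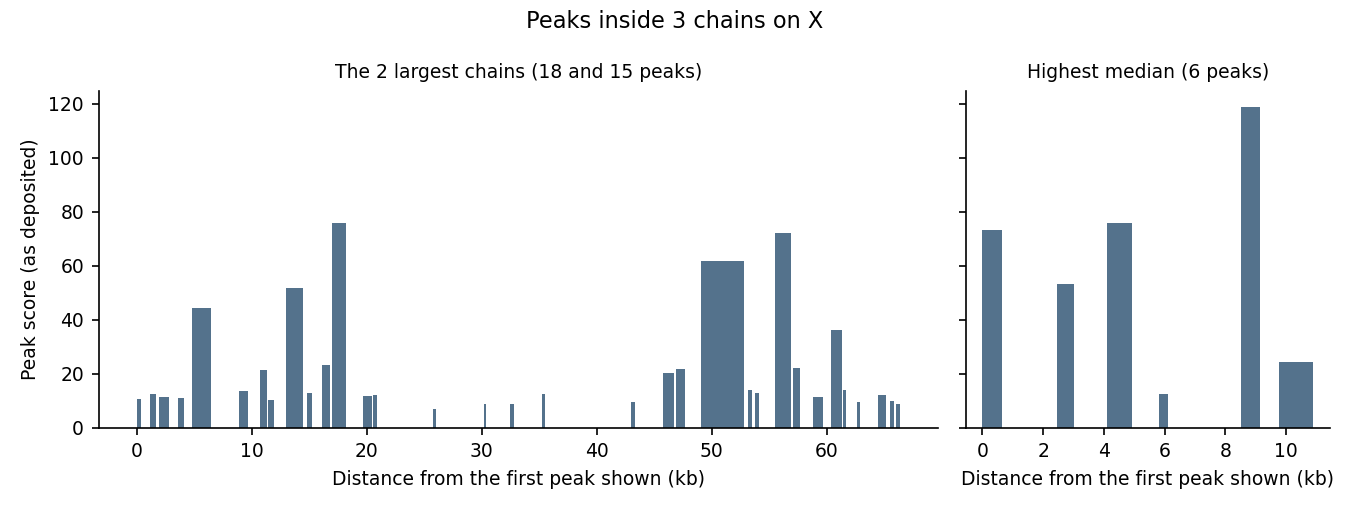
Peaks of the 2 largest X chains (left) and of the chain with the highest median score (right), with bar height giving the score as deposited, bar width the peak width, and the horizontal axis the distance in kb from the first peak shown. Weak peaks of about 7 to 24 fill the left panel around 6 bars that reach 36.1 to 75.69, while 4 of the 6 bars in the right panel are above 50.

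The remaining chains were much shorter. The third had 7 peaks from 2186661 to 2201698 and scores of 7.2 to 31.17. Of the 2 with 6 peaks, the chain from 13880323 to 13891220 had the highest median score of all 12, at 63.325, with peaks of 73.28, 53.37, 75.68, 12.35, 118.94 and 24.27 in order along the chromosome. The other, from 3634940 to 3645474, was built around 1 peak of 3077 bp with a score of 78.4, and its other scores were 8.26 to 30.65.

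The other 7 chains had 5 peaks each. Those from 16530150 to 16542556, from 10629667 to 10639428 and from 8116778 to 8126466 had median scores of 16.19, 18.6 and 15.24. In the chains from 7193715 to 7202986 and from 7950445 to 7958152 a single peak exceeded 100, at 126.25 and 135.22, and those peaks were 2440 and 2565 bp wide. Peaks covered 57.1% and 66.6% of these last chains, the highest shares of the 12. When peaks less than 1 kb apart were merged, 3 chains of 5 or more regions remained, and both parts of the broad stretch were among them, with 9 and 6 regions.

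Crowding without a chain of 5 or more peaks was also seen. Of the 35 windows of 50 kb with 5 or more peaks, the fullest were the adjoining pair at the broad stretch, from 1500001 to 1550000 with 20 peaks and from 1450001 to 1500000 with 19. The next, from 12600001 to 12650000, held 11 peaks, and none of them lay in a chain of more than 4. That depends on the 5 kb limit, since a gap of 5506 bp separated chains of 4 peaks in this window. The median gap inside the window was 1295.5 bp. Its scores ran from 14.98 to 67.64 with a median of 31.72, so that its weakest peak was above the medians of both windows at broad (13.17 and 12.22). The windows from 7800001 to 7850000 and from 3600001 to 3650000 held 8 peaks each. A further 5 windows tied at 7 peaks. Of these, the window from 7950001 to 8000000 had the highest single score, the 135.22 peak named above, and a median of 45.39, and the one from 13850001 to 13900000 had the highest median, 53.37.

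Notch, which encodes the receptor of the Notch signalling pathway, is by background knowledge carried in the stretch from 3000001 to 3100000. That stretch held 3 peaks, none within 12 kb of another. Their scores were 11.07 at 3028954 to 3029445, 23.67 at 3056148 to 3057046 and 12.71 at 3069191 to 3069443. Peaks there were sparser than in the broad stretch, the most crowded of X, but about as dense as over the whole X span (30.2 per Mb). The 3 scores lay within the range of the broad stretch, 6.84 to 75.69, as did those of most X peaks. Between the last peak of the broad chains and the first peak of the Notch stretch, a distance of 1507607 bp, lay 69 peaks. Their median score was 15.57 and 5 of them exceeded 100, where 5.06% of all X peaks did.

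In RefSeq's gene table for the release 6 assembly, used here for names and order only, 167 protein-coding genes lie between broad and Notch. Those known for developmental roles include ultraspiracle (usp), which encodes the partner of the ecdysone receptor, and polyhomeotic distal and proximal (ph-d and ph-p), which encode subunits of a Polycomb repressive complex. Beyond Notch, the table places bifid (bi), ovo, Sex-lethal, cut, lozenge (lz), scalloped (sd), disco, the Bar genes (B-H2 and B-H1) and runt in this order. Which peaks lie at these genes was not analysed here, because the table and the peaks are on different assemblies. No sequence of a peak is shown for the same reason.

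Width rose with score. Over the 672 X peaks the Spearman correlation was 0.767, a description of peaks that share libraries and a caller that sets both measures. In the fifth of X peaks with the lowest scores, 6.39 to 10.73, the median was 290 bp wide, and the fifth with scores of 41.56 or more had a median width of 1048 bp. Peaks 1000 bp or wider numbered 96 on X (14.3%, 95% interval 11.7 to 17.2%), where the share over the whole list was 8.91%. On the arms 2L, 2R, 3L and 3R together they made up 8.46% (291 of 3438, 7.55 to 9.44%). At scores of 10 to 20 the median width was 379.5 bp on X and 350 bp on those arms, and above 100 it was 1353.5 and 1018.5 bp.

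The widest X peaks all had high scores but were mostly not the very strongest. The 10 widest scored 61.79 to 194.7, where the median of all X peaks was 16.985. Of these 10, 5 had scores above 100, where 5.06% of all X peaks did, and 2 were among the 12 strongest. After the 3726 bp peak at broad came 3184 bp at 7829367 to 7832550, with a score of 98.96, then the 3077 bp peak with 78.4 given above, and 2597 bp at 11029545 to 11032141, with 110.59. The next were 2565 bp at 7954216 to 7956780, 2535 bp at 19388834 to 19391368 and 2440 bp at 7199789 to 7202228, with scores of 135.22, 88.14 and 126.25. The peaks at 15705550 (2173 bp) and 19471709 (2093 bp) were the pair shared with the 12 strongest. The tenth, at 2030370 to 2032438, was 2069 bp wide with a score of 66.58.

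**Figure D5:**
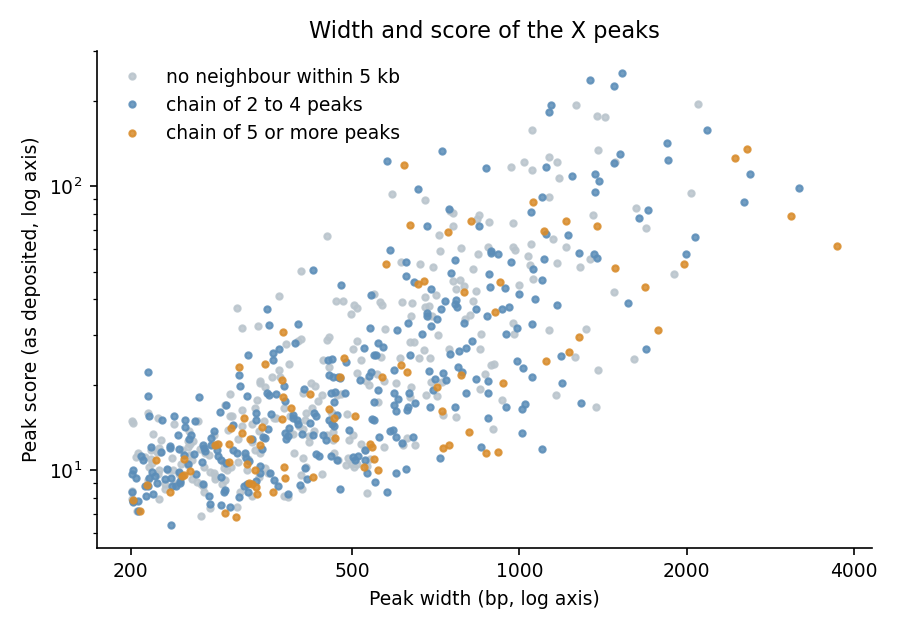
Score (vertical log axis, as deposited) against width (horizontal log axis, bp) for the 672 X peaks, coloured by whether a peak has no neighbour within 5 kb or lies in a chain of 2 to 4 or of 5 or more. Both rise together, the widest point, 3726 bp, is a chain member with a score of 61.79, and the 12 strongest points lie at 1052 to 2173 bp.

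Neighbouring peaks differed in strength whatever their distance. Among the 119 neighbours less than 1 kb apart, the stronger had a median of 1.85 times the score of the weaker, and among the 237 that were 20 kb or more apart the ratio was 2.02. The Spearman correlation between the scores of neighbours was -0.06 under 1 kb, -0.03 at 1 to 5 kb, 0.13 at 5 to 20 kb and 0.04 beyond. Score and distance to the nearest peak had a correlation of 0.014 over all 672 peaks.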

How the data were processed

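The data are 1 peak list for the whole series, from 2 ChIP and 2 input libraries. Per the file headers, positions are on FlyBase release 5 and MACS is the source. Per the submitters' processing notes, the tools were MACS2, BWA and CASAVA (1.7.0.2 and 1.7.0.3). How the libraries were combined is not stated there, nor are the read filters or the call threshold. The authors deposited a score with each start and end and did not define it. No column holds a single library, so depth per library and replicate error are unknown.

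From these values, widths, gaps, counts in bins of 1 Mb and windows of 50 kb (by peak midpoint), and chains (runs of peaks with no gap above 5 kb) were computed with Python 3.11.15, pandas 2.3.3, numpy 2.4.6 and scipy 1.17.1. The chain and merging steps were tested on simulated data. Named were the 12 strongest and 10 widest peaks, the 3 fullest and 3 emptiest bins, the 6 fullest windows (ties by the highest score), the 5 longest empty stretches, and the 8 chains with the most peaks (7 chains tied at 5 peaks, taken by the wider span). The chain with the highest median score, also to be named, was among these. The other peaks given with positions, the window from 13850001 and the chains from 7193715 and 7950445 were chosen after their values were seen. The thresholds, this rule and the choice of the X peaks were made with earlier results of these data known. No test was run. Alternatives were a stricter list, other windows and chain gaps, and merged peaks. Counts of peaks at genes were not run, since no release 5 annotation was used here.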

Additional observations from a re-analysis of the deposited data

How the results depend on the processing

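Limiting the list to peaks at or above the median score of 15.46 removes peaks by construction. It gave a share of 16.9% for X, 17.2 peaks per Mb (30.2 in the full list), a median gap of 22758 bp, 7 crowded windows, 4 chains, a fullest bin of 37 peaks and a correlation of score and width of 0.626. Merging peaks less than 1 kb apart gave 24.8 per Mb, a median gap of 15656 bp, 15 crowded windows and 3 chains. With gaps of up to 10 kb there were 21 chains, and a score above 50 was reached by 16.2% of X peaks. Leaving out the 2 fullest windows, an alternative chosen after seeing the data like those on the fullest bin, lowered the fullest bin from 90 to 51 peaks. Shifting the bins by 500 kb gave a fullest bin of 70 peaks. The stretches of 100 kb or more without a peak numbered 73 in the stricter list. The chains with gaps of up to 3 kb (8) and the crowded windows on a grid shifted by 25 kb (29) were within 1.5 times the values reported. No paired analysis was possible because the deposited list has no values per library, and so no replicate could be left out. Weak peaks are the first that depth limits, but the depth is unknown.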
